A study of Mus musculus with 12 samples.

Results

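Immunoglobulin variable (V) segments were examined in 12 mouse tumors treated with a STING agonist, with a membrane-anchored form of interleukin-15, or with both. All gene rows whose symbol starts with Ighv, Igkv or Iglv and whose counts summed to at least 10 over the 12 tumors were taken. That sum, measured in the same libraries, is the value by which the members were chosen. The rule gave 168 members of 348 V rows and of 49315 gene rows in all: 84 of 185 Ighv rows on chromosome 12, 81 of 160 Igkv rows on chromosome 6 and all 3 Iglv rows on chromosome 16. The members just inside the limit were Igkv1-132 and Igkv1-133 with 10 counts each, and the rows just outside were Ighv1-77 and Igkv4-77 with 9 each. The 180 rows left out held 333 counts together, 0.296% of all V counts. GENCODE M21 classes 165 members as functional V genes and 3 (Ighv1-2, Ighv1-79 and Igkv3-11) as pseudogenes.

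V segments are the building blocks of antibody variable domains. In each developing B cell, recombination joins 1 heavy-chain V segment to a D and a J segment, and 1 kappa or lambda V segment to a J segment, so that most B cells transcribe a single productive pair. Antibody-secreting plasma cells carry far more immunoglobulin transcript per cell than resting B cells do. The V segments transcribed in a tissue therefore depend both on which B-lineage clones are present and on how much antibody message each one makes. In bulk tumors, fewer cells of a type and less RNA per cell cannot be told apart.

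The tumors grew from TRAMP-C2, a single mouse prostate adenocarcinoma line derived from a transgenic animal. In each mouse 5000000 cells were placed under the skin of the right flank of male C57BL/6J mice aged 6 to 8 weeks, and treatment began at a tumor volume near 200 mm3. Each group held 3 tumors, injected directly. The HBSS group (tumors 19, 22R and 22LL) received 50 µl of Hank's balanced salt solution in 3 doses. The cyto-IL-15 group (9R, 13 and 20LL) received 2 doses of 10 µg of an interleukin-15 that carries a lipid-bearing peptide for attachment to membranes, on days 0 and 4. Tumors 17LL, 18R and 22LR formed the ADU-S100 group and received 3 doses of 50 µg of this synthetic cyclic dinucleotide, which activates STING, on days 0, 2 and 4. The combination group (20L, 22 and 28LL) received both schedules. Tumors were collected on day 6, divided and frozen, so each library holds RNA of tumor cells and of every host cell in the part used. No gene was deleted or silenced in any group.

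The libraries held 48772204 to 103700199 counts. Among markers of prostate epithelium, Krt8 ranged from 2.21 to 147 CPM (counts per 1000000 counts of the library), while Pbsn was at 0 in 11 of the 12 tumors. The cyto-IL-15 tumor 13 stood apart from the other 11. It held 15 V counts, its 12 immunoglobulin constant genes summed to 4.62 CPM against 37.8 to 1301 CPM in the other 11, and its 8 T cell genes to 18.6 CPM against 31.0 to 180 CPM. Comparisons that rest on it are given with and without it.

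The segments on which the results turn are shown by the last 90 bases of their coding part, from the GENCODE M21 transcripts on GRCm38. This is the end of the V exon, the part that runs into the third hypervariable loop. Capitals mark a tyrosine codon (TAT or TAC), a tyrosine or phenylalanine codon and the codon of the conserved cysteine (TGT or TGC). The first 3 were prominent in several tumors.
Ighv1-82, chr12:115952538-115952627, minus strand: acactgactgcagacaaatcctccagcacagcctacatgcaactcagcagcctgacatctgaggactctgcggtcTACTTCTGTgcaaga
Igkv6-23, chr6:70260409-70260498, minus strand: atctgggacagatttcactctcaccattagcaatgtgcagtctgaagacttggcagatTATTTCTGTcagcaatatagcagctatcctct
Igkv6-25, chr6:70215868-70215957, plus strand: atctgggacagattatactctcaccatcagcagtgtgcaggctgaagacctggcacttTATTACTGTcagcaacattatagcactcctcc
The next pair took most of the V counts of a single combination tumor.
Ighv5-17, chr12:113859149-113859238, minus strand: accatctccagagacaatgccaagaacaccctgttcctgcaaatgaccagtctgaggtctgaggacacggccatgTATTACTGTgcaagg
Igkv17-121, chr6:68037229-68037318, plus strand: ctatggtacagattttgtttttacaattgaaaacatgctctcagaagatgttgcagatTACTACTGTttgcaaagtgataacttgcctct
The remaining segments led in a tumor with a high V level, or, for Iglv1, led the lambda class.
Ighv3-6, chr12:114288152-114288241, minus strand: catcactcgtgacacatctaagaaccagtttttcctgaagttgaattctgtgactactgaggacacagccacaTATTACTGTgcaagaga
Igkv12-41, chr6:69858420-69858509, minus strand: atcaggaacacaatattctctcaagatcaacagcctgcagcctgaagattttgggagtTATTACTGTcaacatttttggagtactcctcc
Igkv12-46, chr6:69764523-69764612, minus strand: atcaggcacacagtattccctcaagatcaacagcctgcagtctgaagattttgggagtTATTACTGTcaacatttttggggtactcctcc
Ighv14-4, chr12:114176438-114176527, minus strand: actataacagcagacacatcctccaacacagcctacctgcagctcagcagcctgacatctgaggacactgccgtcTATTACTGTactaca
Igkv8-24, chr6:70216858-70216947, minus strand: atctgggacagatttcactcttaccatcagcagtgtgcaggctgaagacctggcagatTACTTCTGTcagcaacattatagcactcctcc
Iglv1, chr16:19085017-19085106, minus strand: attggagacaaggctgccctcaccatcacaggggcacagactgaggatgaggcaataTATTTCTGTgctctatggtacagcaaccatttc

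The letters of the marked codons were found, in any reading frame, within the last 40 coding bases of 164 of the 168 members. On the strand read, the same letters lay in that window of 0.157% of 45113 protein-coding transcripts. Relatives were close. The nearest other segment of the same class had at least 95% identity over the coding part for 85 of the 168 members, which held 57.6% of the members' counts. Ighv1-82 and Ighv1-80 were 95.4% identical, Igkv12-41 and Igkv12-46 were 95.1% identical, and Igkv6-23 and Igkv6-25 were 91.6% identical. How reads matching several segments were counted is not given in the sources used here, so counts of single relatives are uncertain, while sums over a class are less exposed to it.

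The summed V-segment level was lower in every ADU-S100 tumor and in every combination tumor than in any HBSS tumor. The HBSS tumors 19, 22R and 22LL stood at 318, 151 and 266 CPM. The ADU-S100 tumors 17LL, 18R and 22LR stood at 3.17, 87.6 and 16.2 CPM, and the combination tumors 20L, 22 and 28LL at 12.2, 37.2 and 24.8 CPM. The geometric means were 234 CPM for HBSS, 16.5 CPM for ADU-S100 and 22.4 CPM for the combination, so that the sum was 14.2-fold lower with ADU-S100 (log2 ratio -3.82) and 10.4-fold lower with the combination (log2 ratio -3.38). The spread within groups was wide, with an SD over 3 tumors on the log2 scale of 0.56 for HBSS, 2.40 for ADU-S100 and 0.82 for the combination. Both comparisons share the HBSS tumors. Without tumor 18R the log2 ratio of ADU-S100 to HBSS was -5.03, and without tumor 17LL it was -2.64.

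The cyto-IL-15 tumors 9R, 13 and 20LL stood at 184, 0.221 and 414 CPM, and thus included both the lowest and the highest tumor of the series. The log2 ratio to HBSS was -3.19 with tumor 13 and 0.24 without it, so the direction rested on this 1 tumor. The ADU-S100 and combination groups overlapped: the log2 ratio of combination to ADU-S100 was 0.44, and -0.75 without tumor 17LL. These sums are descriptions over the members and were given no test.

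**Figure D1:**
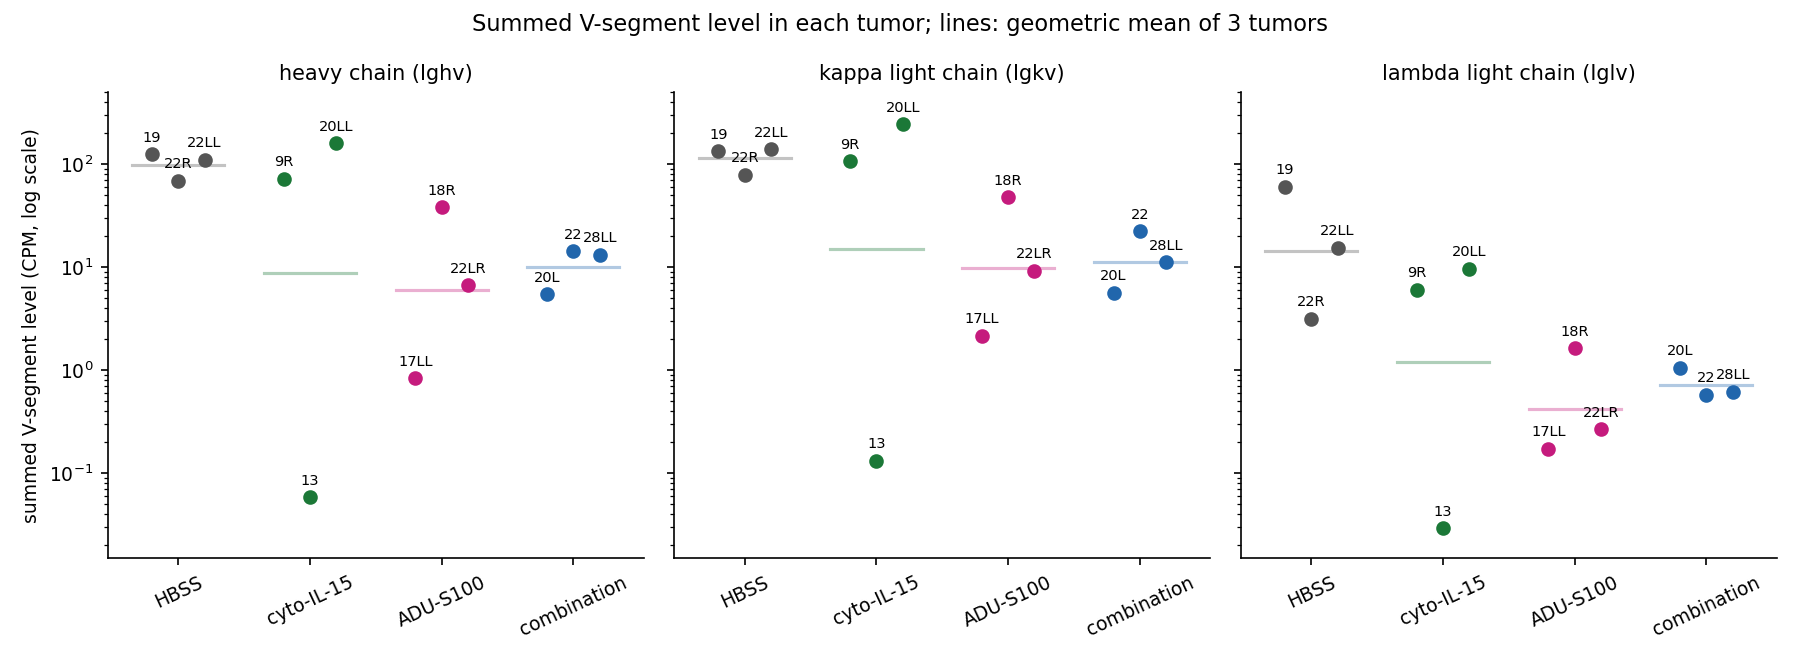
Summed level of heavy-chain, kappa and lambda V segments in each of the 12 tumors (points, labelled by tumor), in CPM on a log axis, with a line at the geometric mean of the 3 tumors of a group. In all 3 classes every ADU-S100 and every combination tumor lies below every HBSS tumor, and cyto-IL-15 tumor 13 lies far below all others.

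The 3 classes fell into the same order. Heavy-chain segments summed to 125, 69.1 and 111 CPM in the HBSS tumors, to 0.835, 38.2 and 6.69 CPM with ADU-S100 and to 5.45, 14.3 and 13.1 CPM with the combination. Kappa segments summed to 133, 78.7 and 140 CPM in the HBSS tumors, to 2.16, 47.7 and 9.22 CPM with ADU-S100 and to 5.64, 22.4 and 11.1 CPM with the combination. Neither treated group overlapped HBSS in either class. The lambda segments, of which the mouse has few, were at 60.5, 3.15 and 15.5 CPM in the HBSS tumors, at 0.173, 1.64 and 0.267 CPM with ADU-S100 and at 1.06, 0.581 and 0.617 CPM with the combination, again without overlap.

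The lambda share of light-chain V counts differed most between tumors of 1 group. It was 31.3% in HBSS tumor 19 (95% Clopper-Pearson interval 30.5 to 32.2%), but 3.85% (3.38 to 4.36%) in 22R and 9.99% (9.50 to 10.5%) in 22LL. With ADU-S100 it lay between 2.82% and 7.41%, with the combination between 2.53% and 15.8%, and in the cyto-IL-15 tumors 9R and 20LL at 5.39% and 3.79%, so all groups overlapped. In tumor 13 it was 18.2%, with an interval of 2.28 to 51.8% on 11 light-chain counts. These intervals cover counting error only. Iglv1 led the lambda class, with 2417 counts in tumor 19, 190 in 22R and 1277 in 22LL. Iglv3 was almost confined to tumor 19, which held 1173 of its 1369 counts, or 88.1% of its summed CPM. Iglv2, which is 96.9% identical to Iglv1, had 118 counts in tumor 19 and 90 in 22LL and at most 11 in any other tumor.

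Fewer segments were seen where the V level was low. With at least 10 counts taken as detection, 103, 81 and 102 members were detected in the HBSS tumors, 93, 0 and 114 in the cyto-IL-15 tumors 9R, 13 and 20LL, 4, 67 and 15 in the ADU-S100 tumors and 20, 35 and 10 in the combination tumors. All ADU-S100 and combination tumors lay below all HBSS tumors. This count moves with depth, because those tumors held 220 to 9082 V counts against 11447 to 23761 in HBSS. When each tumor other than 13 was thinned to 220 V counts, the expected number of members seen was 55.8, 51.4 and 53.5 with HBSS, 63.0, 49.6 and 32.3 with ADU-S100 and 48.9, 42.8 and 29.7 with the combination. At matched depth the ADU-S100 tumors thus overlapped HBSS, and tumor 17LL, with the fewest V counts of the 11, had more segments than any HBSS tumor. The combination tumors remained below HBSS at 220 counts, a depth chosen after seeing the data. At the planned depth of 15 counts they overlapped, with 11.23 members in tumor 20L against 11.08 in 22R and 11.18 in 22LL. At 220 counts the cyto-IL-15 tumors 9R and 20LL showed 70.2 and 58.6 members, above all 3 HBSS tumors.

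The effective number of segments, the exponential of the Shannon entropy of the counts, falls when few segments take most counts. For heavy chains it was 23.3, 18.4 and 18.6 in the HBSS tumors, 16.7, 10.5 and 6.69 with ADU-S100 and 12.6, 11.7 and 2.54 with the combination, without overlap between HBSS and either group. The value for tumor 17LL rests on 58 heavy-chain counts, which limits how many segments it can show. For kappa chains it was 24.1, 15.5 and 17.1 with HBSS, 20.5, 17.8 and 6.81 with ADU-S100 and 19.1, 13.3 and 3.68 with the combination, and the groups overlapped. Tumor 9R had the highest values of the series, 35.5 for heavy and 30.3 for kappa chains.

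Many segments were concentrated in 1 tumor, while a few led in several. Of the 168 members, 102 had more than 50% of their summed CPM in 1 tumor: 33 in tumor 20LL, 22 in 19, 16 in 22LL, 16 in 9R, 7 in 22R, 5 in 18R, 2 in tumor 22 and 1 in 28LL, with none in 13, 17LL, 22LR and 20L. Only 7 members reached 10 counts in at least 9 tumors: Ighv1-82, Ighv3-6, Igkv6-23, Igkv6-15, Igkv3-4, Igkv19-93 and Iglv1. Of the rest, 23 members did so in 1 tumor and 15 in none. The 10 leading heavy-chain segments of 2 tumors had a median of 3 in common over the 10 pairs of tumors of the same group and also over the 45 pairs of different groups, tumor 13 aside. The ranges were 2 to 5 and 1 to 5, and kappa segments gave the same values, so tumors of a group shared about as many leading segments as tumors of different groups.

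**Figure D2:**
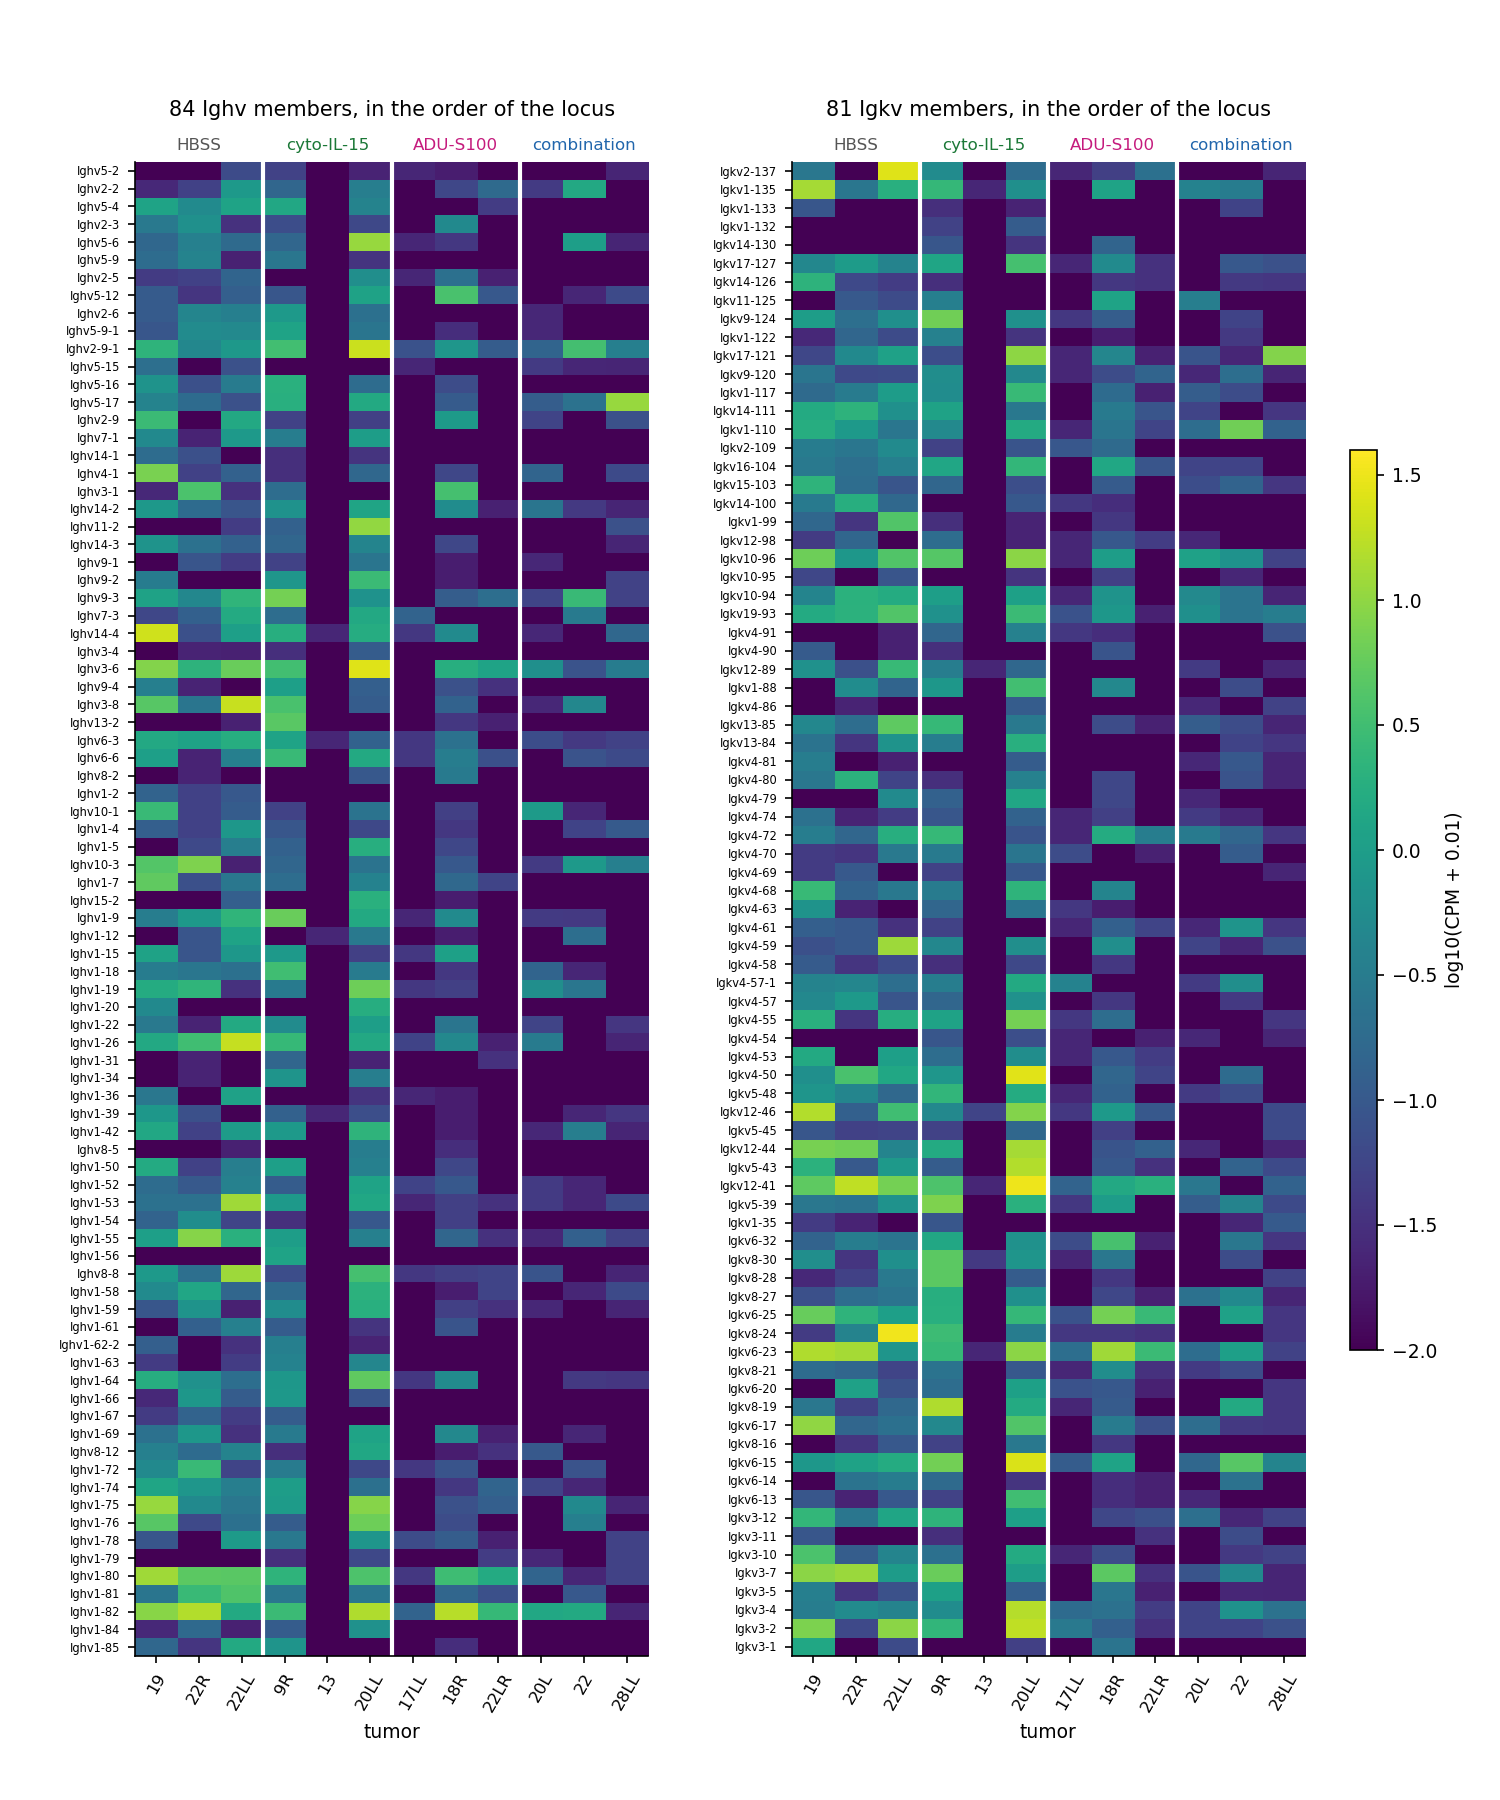
Level of each Ighv (left, 84 rows) and Igkv (right, 81 rows) member in each tumor, as log10 of CPM plus 0.01, with rows in the order of the locus and columns grouped by treatment. Bright cells sit in different rows from tumor to tumor, the columns of tumors 13 and 17LL are dark, and the Ighv5-17 and Igkv17-121 rows are bright in tumor 28LL.

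Ighv1-82 was the heavy-chain segment with the highest mean level, 14.2 CPM per kilobase of exon. It had 550, 1170 and 138 counts in the HBSS tumors 19, 22R and 22LL, 140, 0 and 1160 in the cyto-IL-15 tumors 9R, 13 and 20LL, 9, 1718 and 230 in the ADU-S100 tumors and 94, 105 and 1 in the combination tumors. As a share of heavy-chain V counts this was 7.17%, 22.3% and 1.40% with HBSS but 15.5%, 43.3% and 38.3% with ADU-S100. In CPM the ADU-S100 tumors 17LL, 18R and 22LR stood at 0.129, 16.6 and 2.56 and the HBSS tumors at 8.98, 15.4 and 1.54. The levels overlapped, and Ighv1-82 was not called (edgeR log2 fold change -0.44, SE 1.61, adjusted p = 0.899). It ranked first in tumors 22R, 18R, 22LR and 20L, and shared first place with Ighv7-3 in 17LL with 9 of 58 counts each.

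Its close relative Ighv1-80 had 754, 379 and 423 counts with HBSS, 2, 310 and 144 with ADU-S100 and 9, 1 and 3 with the combination. In tumor 22LR it followed Ighv1-82 with 24.0% of heavy-chain counts. In the combination tumors the pair parted, with 94 and 9 counts in 20L and 105 and 1 in tumor 22.

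Among kappa segments the corresponding pair was Igkv6-23 and Igkv6-25 (the latter named after its values were seen). Igkv6-23 had 900, 974 and 67 counts with HBSS, 124, 1 and 747 with cyto-IL-15, 13, 1256 and 256 with ADU-S100 and 12, 74 and 3 with the combination. Igkv6-25 had 360, 165 and 96 counts with HBSS, 5, 724 and 249 with ADU-S100 and 0, 78 and 2 with the combination. Both took larger shares of kappa counts in the ADU-S100 tumors 18R and 22LR than in any other tumor. Igkv6-23 held 25.4% (24.2 to 26.6%) in 18R and 30.9% (27.8 to 34.2%) in 22LR, and Igkv6-25 held 14.6% and 30.1%. Neither was called in the ADU-S100 comparison (edgeR adjusted p = 0.778 for Igkv6-23 and 0.971 for Igkv6-25).

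Igkv12-41 was the kappa segment with the highest mean level, 16.8 CPM per kilobase. Its counts were 315, 1372 and 638 with HBSS, 193, 1 and 2514 with cyto-IL-15, 9, 155 and 170 with ADU-S100 and 17, 0 and 9 with the combination. Every combination tumor was below every HBSS tumor, and every ADU-S100 tumor as well, yet neither difference passed in edgeR (log2 fold change -3.11, SE 1.00, adjusted p = 0.139 for ADU-S100 and -6.31, SE 1.18, adjusted p = 0.185 for the combination). Ighv3-6 had 524, 159 and 527 counts with HBSS, 0, 186 and 108 with ADU-S100 and 41, 5 and 23 with the combination. It too was lower in every ADU-S100 and combination tumor than in any HBSS tumor and was not called (edgeR adjusted p = 0.333 and 0.185). It was the leading heavy-chain segment of cyto-IL-15 tumor 20LL, with 2087 counts or 16.5% (15.9 to 17.2%).

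Some of the most abundant segments in the HBSS tumors came almost from 1 tumor alone. Igkv8-24 had 2941 counts in tumor 22LL, 23.6% (22.8 to 24.3%) of its kappa counts, and only 2 in tumor 19 and 30 in 22R. Igkv2-137, named after its values were seen, had 2372 counts there, 16 in tumor 19 and none in 22R. In the same tumor Ighv3-8 and Ighv1-26 took 17.8% and 17.4% of heavy-chain counts. Their intervals of 17.1 to 18.6% and 16.7 to 18.2% overlapped, and per exonic length Ighv1-26 came first. Of the 24 first places by counts, 12 tumors by 2 classes, 2 were ties, and 21 of the other 22 were the same per length, this case being the exception. In tumor 19, Ighv14-4 led with 1359 counts, 17.7% (16.9 to 18.6%), against 5 in 22R and 96 in 22LL, and Igkv12-46 with 926, against 9 and 282.

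In cyto-IL-15 tumor 9R the first were Ighv9-3 with 9.75% (8.78 to 10.8%), the lowest first share of heavy-chain counts in the series, and Igkv8-19 with 14.2% (13.2 to 15.1%). Igkv8-19 had 731 counts there and at most 124 in any other tumor. In 20LL, which led with Ighv3-6 and Igkv12-41, Ighv2-9-1 had 1598 counts and Igkv6-15 had 1982. Both also stood out in combination tumor 22, with 230 counts (23.4% of heavy-chain counts) and 317 (20.6% of kappa counts), where Igkv1-110 led with 461 (30.0%). Igkv3-2 had 479, 4 and 846 counts in the HBSS tumors, 1445 in 20LL and at most 19 in any ADU-S100 or combination tumor. Igkv3-7 had 574, 874 and 83 counts with HBSS and 511 in ADU-S100 tumor 18R. In the sparse tumors 17LL and 20L the leading kappa segments were Igkv4-57-1 with 27 of 150 counts and Igkv10-96 with 76 of 373.

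Combination tumor 28LL was the most uneven. Ighv5-17 had 798 of its 957 heavy-chain V counts, 83.4% (80.9 to 85.7%), and Igkv17-121 had 622 of its 810 kappa counts, 76.8% (73.7 to 79.7%). In the other 11 tumors Ighv5-17 held at most 2.57% of heavy-chain counts and Igkv17-121 at most 3.96% of kappa counts, so a single pair of segments held most of the V message of this tumor. In absolute terms Ighv5-17 was at 10.9 CPM in 28LL against 0.392, 0.171 and 0.0671 CPM in the HBSS tumors, and Igkv17-121 at 8.53 CPM against 0.0490, 0.501 and 1.15 CPM. Cyto-IL-15 tumor 20LL had more Igkv17-121, 9.66 CPM, but as a small part of a large kappa sum. The constant gene Ighg2b stood at 37.5 CPM in tumor 28LL against 2.88 and 8.79 CPM in the other combination tumors. This lay within the 48.1, 32.7 and 14.7 CPM of the HBSS tumors. Ighg2c stood at 0.699 CPM in 28LL against 3.07 and 4.13 in the other combination tumors. Tumor 28LL was an exception within its group, and neither segment was called in combination against HBSS (edgeR adjusted p = 0.292 and 0.538).

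**Figure D3:**
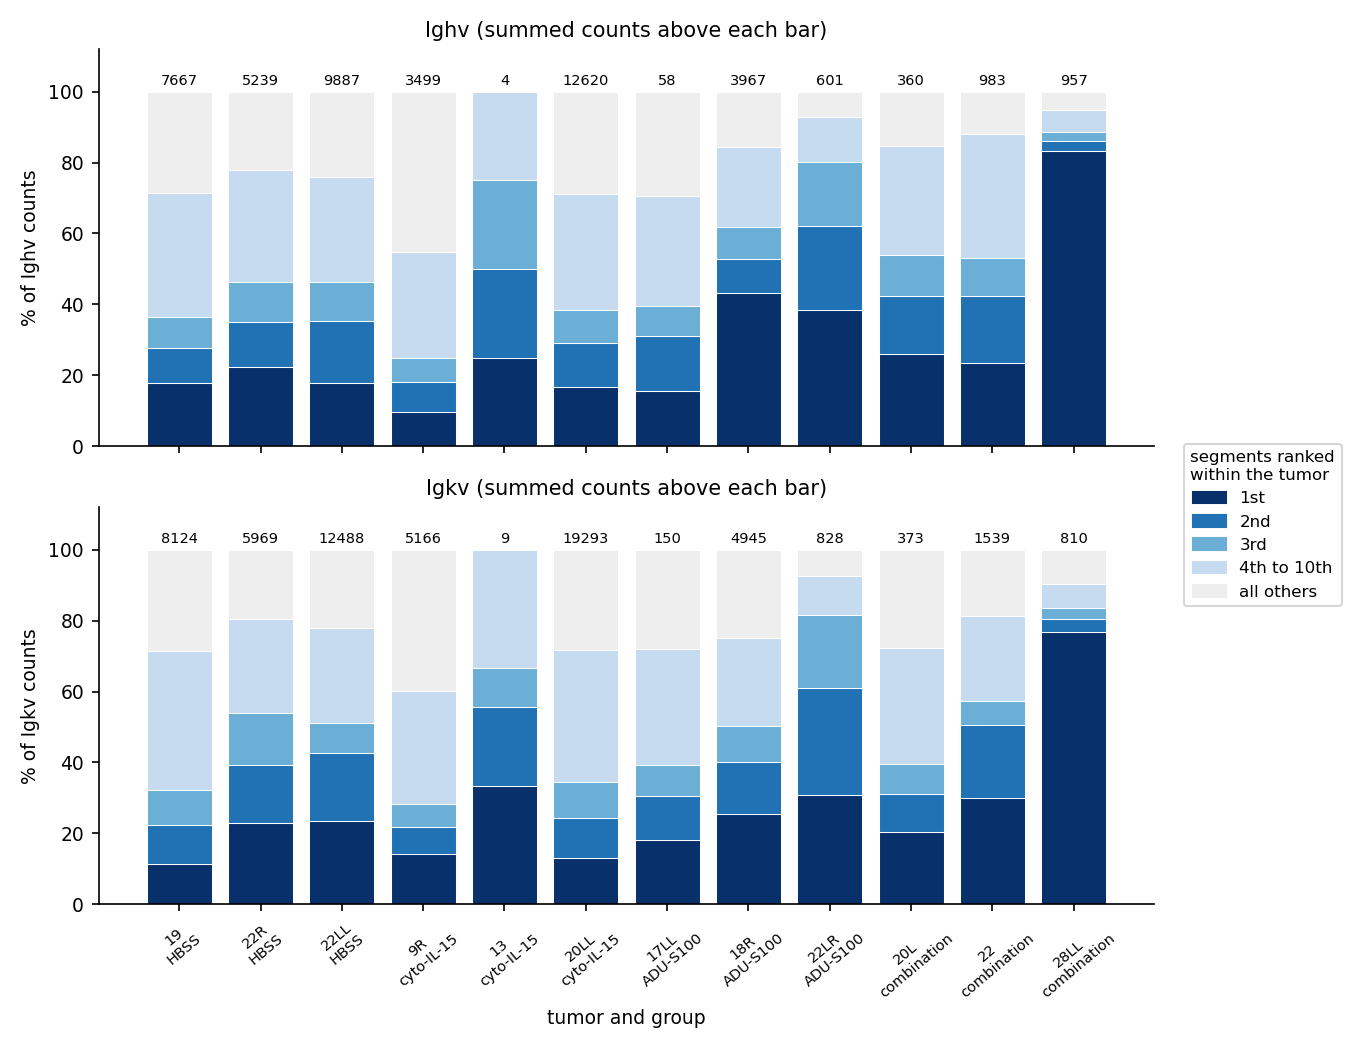
Share of heavy-chain (top) and kappa (bottom) V counts taken in each tumor by its segments of rank 1, 2 and 3, by ranks 4 to 10 together and by all others, with the summed counts of the class above each bar. The first segment takes 83.4% and 76.8% in tumor 28LL and 9.75% and 14.2% in tumor 9R, and the bars of tumor 13 rest on 4 and 9 counts.

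The members fell into 34 gene families. In 17 of them every ADU-S100 tumor was below every HBSS tumor, and in the other 17 the groups overlapped. For the combination this held in 19 families. Of 29916 single genes, 11.7% and 11.2% lay so, a share for genes and not for sums over families. Among the 21 families with at least 1000 counts it held in 12 and 13. The largest, Ighv1, with 43 members, was at 58.9, 48.5 and 58.1 CPM with HBSS, 32.2, 0.0294 and 67.6 with cyto-IL-15, 0.460, 24.2 and 4.72 with ADU-S100 and 2.83, 3.65 and 0.521 with the combination. The HBSS tumors were close to one another for this family although their leading segments differed. Igkv12 was at 28.2, 25.1 and 13.4 CPM with HBSS, 0.173, 2.53 and 2.14 with ADU-S100 and 0.318, 0 and 0.206 with the combination. Igkv6 was at 31.7, 18.1 and 4.35 CPM with HBSS and 0.489, 24.3 and 5.73 with ADU-S100, which overlapped. Ighv5 reached 11.04 CPM in tumor 28LL, above the 2.06 to 3.00 CPM of HBSS, through Ighv5-17.

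Single segments were then tested with edgeR's quasi-likelihood test, each comparison on its own 6 tumors, and called at a Benjamini-Hochberg adjusted p under 0.05 with an absolute log2 fold change over 1. In ADU-S100 against HBSS, 70 of the 168 members passed the filter on low counts. A segment seen in the 3 HBSS tumors alone could pass it, so counts among these are descriptions. Of them 9 were called, all lower, where 0.777% of the 18911 genes tested were called lower. At an unadjusted p under 0.05 there were 33, again all lower, where 11.4% of genes tested were lower at that limit. The median log2 fold change was -3.12 over these 70 and 0.03 over all genes tested. Without the filter it was -3.45 over 166 members and -0.01 over all genes. Every ADU-S100 tumor lay below every HBSS tumor for 58 of the 168 members, against 11.7% of 29916 genes, and for none did every ADU-S100 tumor lie above.

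Of the 5 called segments with the smallest p, Ighv5-4 fell most. It had 75, 39 and 110 counts in the HBSS tumors and 0, 0 and 3 in the ADU-S100 tumors (edgeR log2 fold change -6.26, SE 0.82, adjusted p = 0.00517). The next, Ighv8-12, had 22, 13 and 36 counts against 0, 1 and 2 (-4.61, SE 0.73, edgeR adjusted p = 0.0105). For Ighv1-18 the counts were 19, 19 and 18 against 0, 3 and 0 (-4.33, SE 0.81, edgeR adjusted p = 0.0203). These were segments of low level with even counts in the 3 HBSS tumors, unlike the leading ones. Ighv5-6, which is 95.5% identical to Ighv5-4, had 9, 27 and 15 counts against 1, 3 and 0 (edgeR adjusted p = 0.0303), and Igkv3-12 had 149, 19 and 115 against 0, 5 and 6 (edgeR adjusted p = 0.0381). The other 4 called were Ighv1-58, Igkv4-50, Ighv6-3 and Ighv1-74, with edgeR adjusted p from 0.0384 to 0.0499. A count of 0 in a library allows up to 3 counts.

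The number of calls depended on the fit. DESeq2 on the same tumors called 46 members lower and none higher, including all 9, where 1.68% of genes were called lower, and gave no adjusted p for 62 of 166. A fit over all 12 tumors called none of the 9. Leaving out single tumors gave 5 to 12 calls, with 5 without tumor 17LL. The shares of all genes called in these fits are not given here. Ighv5-4 and Ighv8-12 remained called with each of the 6 tumors left out in turn.

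In the combination against HBSS edgeR called none of the 62 members tested, and 0.0% of the 18565 genes tested. At an unadjusted p under 0.05 there were 36, all lower, where 7.17% of genes tested were lower at that limit, and the smallest adjusted p was 0.185. DESeq2 called 54 members lower and none higher, where 1.06% of genes were called lower. Every combination tumor was below every HBSS tumor for 64 of the 168 members, against 11.2% of genes, and above for none. Without tumor 28LL edgeR called 6 members. The share of all genes called in that fit is not given here, so this is no result about the members. Ighv5-4 had 0 counts in all 3 combination tumors. Ighv6-3 had 4, 2 and 3 against 90, 89 and 158 with HBSS (edgeR log2 fold change -5.01, SE 0.42, adjusted p = 0.185).

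**Figure D4:**
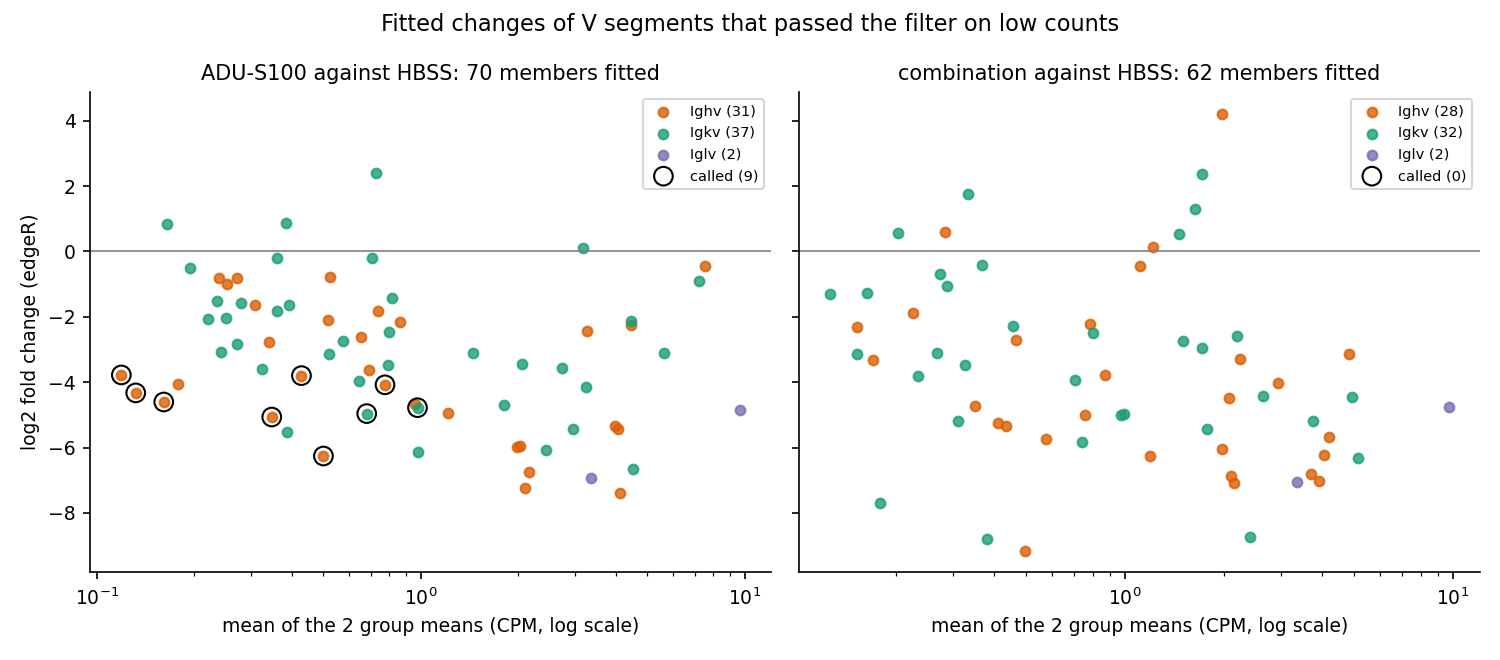
Fitted log2 fold change (edgeR) of the V segments that passed the filter on low counts, against the mean of both group means in CPM on a log axis, for ADU-S100 against HBSS (70 members) and combination against HBSS (62 members), with called segments circled. Most points lie below 0 in both panels. The 9 circled segments of the first panel lie between -6.26 and -3.78, and no segment of the second panel is circled.

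In cyto-IL-15 against HBSS, edgeR called none of 105 members tested and 0.0% of the 18594 genes tested, with 5 members at an unadjusted p under 0.05, 4 of them lower, where 3.8% of genes were under it. DESeq2 called none. Without tumor 13, edgeR called 2 members, both higher. Among the treated groups, ADU-S100 against cyto-IL-15 gave no edgeR call among 47 members, where 0.0855% of genes were called, and 4 members and 7.85% of genes were at an unadjusted p under 0.05. DESeq2 called 4 members and 0.324% of genes lower there, and edgeR 12 lower without tumor 13. Combination against cyto-IL-15 gave none of 34 members and 0.0% of genes, with 3 members and 4.97% of genes at an unadjusted p under 0.05, and also none without tumor 13. Combination against ADU-S100 gave none of 15 members and 0.0% of genes, with 2 members and 4.29% of genes at an unadjusted p under 0.05. DESeq2 called no member in either of these comparisons with the combination. Shares of members near those of all genes are no result about the members. The shares of all genes called without tumor 13 are not given here, so those counts are no result about the members either.

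Some other transcripts of the antibody message followed the V segments, while others overlapped between groups. Jchain, which encodes the joining chain of secreted IgM and IgA, was at 60.9, 29.1 and 69.3 CPM with HBSS, 34.5, 0.0736 and 75.9 with cyto-IL-15, 0.389, 10.2 and 1.81 with ADU-S100 and 2.5, 5.59 and 1.48 with the combination. Igkc, the kappa constant gene, was at 242, 125 and 273 CPM with HBSS, 4.00, 69.0 and 12.3 with ADU-S100 and 10.9, 34.4 and 17.2 with the combination. Jchain and Igkc were lower in every ADU-S100 and combination tumor than in any HBSS tumor. Ighm, the IgM constant gene, overlapped. It was at 540, 111 and 694 CPM with HBSS, 31.5, 120 and 37.0 with ADU-S100 and 43.1, 131 and 74.2 with the combination. Of the 12 constant genes, 5 were lower in every ADU-S100 tumor than in any HBSS tumor, where 11.7% of genes were. For the combination it was 8, where 11.2% of genes were. Mzb1, a chaperone of antibody-secreting cells, was at 4.39, 2.06 and 3.17 CPM with HBSS, 0.259, 1.39 and 0.378 with ADU-S100 and 0.197, 1.29 and 0.562 with the combination. None of the 3 passed in edgeR (adjusted p = 0.161, 0.216 and 0.0854 for ADU-S100 and 0.185, 0.185 and 0.214 for the combination). DESeq2 called Jchain and Mzb1 lower in both comparisons (adjusted p = 0.0221 and 0.0368 for ADU-S100, 1.33e-10 and 0.0144 for the combination) and Igkc in the combination (1.29e-08). The ratio of Igkv to Igkc counts lay between 0.474 and 0.749 in all 12 tumors, so kappa V segments and their constant gene moved together. Over all classes there were 0.322, 0.338 and 0.252 V counts per constant-gene count with HBSS, 0.0838, 0.306 and 0.235 with ADU-S100 and 0.180, 0.202 and 0.186 with the combination, where only the combination did not overlap HBSS. V counts per Jchain count were 5.23, 5.19 and 3.83 with HBSS and 8.15, 8.58 and 8.91 with ADU-S100, without overlap. With the combination they were 4.87, 6.655 and 16.8, which overlapped HBSS.

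Gene lists chosen with earlier results of these data known give the surroundings. Of 12 immunoglobulin constant genes, 11 were tested in ADU-S100 against HBSS and edgeR called only Ighd, the IgD constant gene, lower, with a median log2 fold change of -2.82. DESeq2 called 4 lower (Ighd, Ighm, Iglc1 and Iglc2). Ighg1, the IgG1 constant gene, stood at 6.21 CPM in ADU-S100 tumor 18R and at 5.51 CPM in 22LR, against 0.473 to 0.705 CPM with HBSS and 0.0720 CPM in tumor 17LL. It was not called in ADU-S100 against HBSS (edgeR adjusted p = 0.286). In the combination tumors it was at 0.0605, 0.0291 and 0.0137 CPM, where 3 counts stand for 0.0411 to 0.0454 CPM. DESeq2 called it lower there against HBSS (adjusted p = 2.72e-06), and edgeR did not (adjusted p = 0.185). DESeq2 also called it lower in the combination than with ADU-S100 (adjusted p = 0.000375), where it called 4 genes in all. Of 10 B cell genes edgeR called 4 lower (Fcrla, Bank1, Cd22 and Cd79b) with a median of -1.14, and of 10 plasma cell genes tested only Irf4, lower, with a median of -0.56. DESeq2 called 5 B cell genes and 3 plasma cell genes (Jchain, Irf4 and Mzb1) lower. Cd79b, part of the B cell receptor, was at 7.30, 5.08 and 6.40 CPM with HBSS and 2.49, 3.30 and 1.91 CPM with ADU-S100. In the combination comparison edgeR called no gene of these 3 lists, with medians of -3.34, -0.96 and -0.34, while DESeq2 called 9 constant, 4 B cell and 3 plasma cell genes, all lower.

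The plasma cell list also holds genes of other cells. Sdc1, Xbp1 and Txndc5, expressed by many secretory and epithelial cells, stood at 90.2 to 116, 66.5 to 75.5 and 385 to 446 CPM with HBSS and moved little with ADU-S100, at 113 to 117, 72.7 to 83.3 and 368 to 485 CPM. Slamf7 and Prdm1, on the same list, had higher mean levels with ADU-S100 and with the combination than with HBSS. Neither was called by edgeR or DESeq2. Slamf7 stood at 9.29 to 16.4 CPM with HBSS, 12.8 to 27.9 CPM with ADU-S100 and 13.5 to 124 CPM with the combination. Its edgeR log2 fold change was 0.61 with ADU-S100 and 2.08 with the combination, and that of Prdm1 was 0.32 and 0.52. For both genes the treated groups overlapped HBSS. Of 3 factors that act at V promoters, Pou2f1, Pou2f2 and Pou2af1, edgeR called none in either comparison with HBSS, and DESeq2 called Pou2af1 lower in the combination (adjusted p = 1.12e-06). This gene, a B cell coactivator, was at 3.48, 3.55 and 3.70 CPM with HBSS and 0.288, 1.94 and 0.390 CPM with ADU-S100. Pou2f1 was at 25.6 to 29.45 CPM with HBSS, 16.8 to 20.85 CPM with ADU-S100 and 18.0 to 19.85 CPM with the combination, without overlap with HBSS. With ADU-S100 it passed the limit on p but not on fold change (log2 -0.62, adjusted p = 0.0309 in edgeR and 0.00266 in DESeq2). With the combination the adjusted p was 0.190 in edgeR and 0.0318 in DESeq2. The recombinase genes Rag1 and Rag2 reached at most 0.0436 and 0.0288 CPM. Of 7 genes of recombination and hypermutation 3 passed the filter in ADU-S100 against HBSS, as did 4 of 6 germinal center genes and all 7 genes of B cell attraction and survival, and edgeR called none there or in the combination comparison. DESeq2 called 3 of them with ADU-S100, Gcsam and Cxcl13 lower and Il6 higher, and none with the combination.

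**Figure D5:**
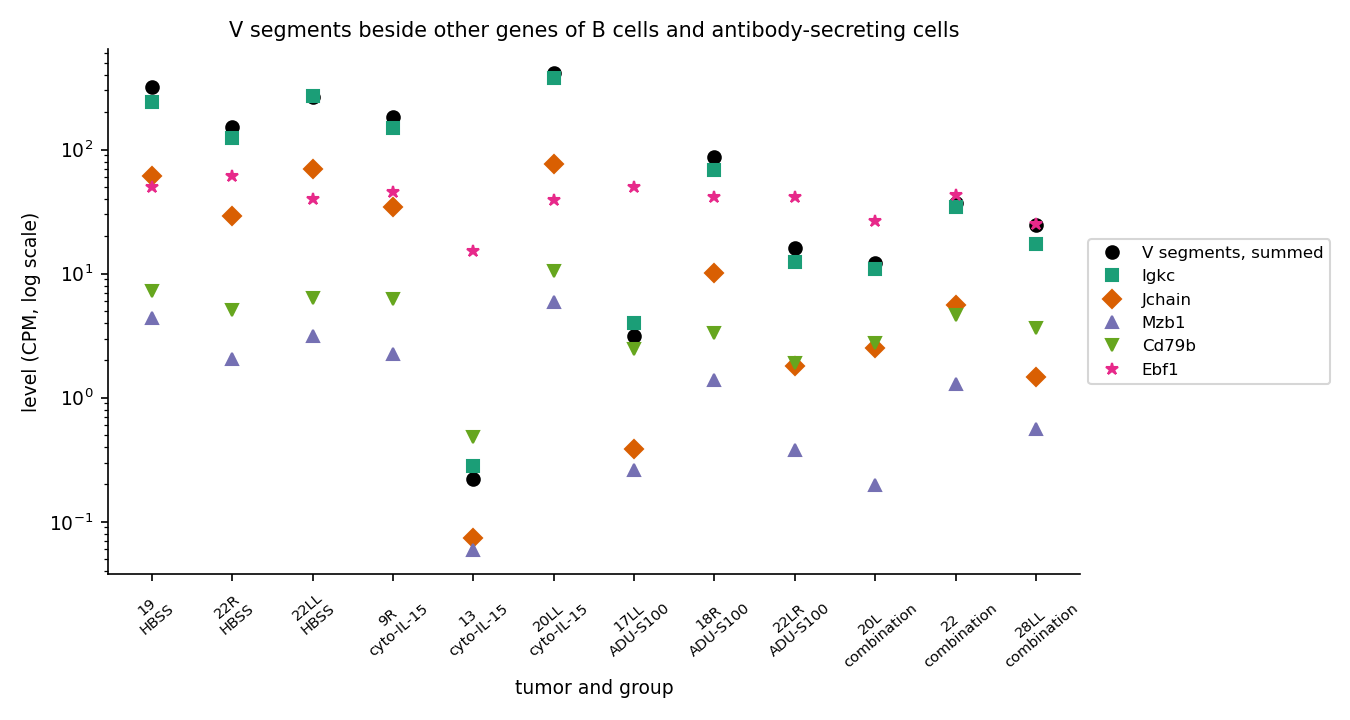
Level of the summed V segments and of Igkc, Jchain, Mzb1, Cd79b and Ebf1 in each of the 12 tumors, in CPM on a log axis. The V sum, Igkc and Jchain are each lower in every ADU-S100 and combination tumor than in any HBSS tumor, and lowest in tumor 13. Cd79b varies less, and Ebf1 stays between 15.1 and 60.8 CPM.

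Markers of other cells moved with the groups too. The 8 skeletal muscle genes summed to 7.09 to 8.21 CPM in the HBSS tumors, 166 to 1914 CPM with ADU-S100 and 57.7 to 3980 CPM with the combination. In the cyto-IL-15 tumors 9R, 13 and 20LL they summed to 795, 3.99 and 280 CPM. EdgeR called 4 of these genes higher with ADU-S100 (Ckm, Acta1, Myh4 and Actn3) and none with the combination, and DESeq2 called all 8 higher in both. Among all genes tested, edgeR called 520 of 18911 higher with ADU-S100 and 0 of 18565 with the combination. DESeq2 called 1121 of 20079 genes with ADU-S100 and 1156 of 21011 with the combination, in either direction. The 7 neutrophil genes summed to 16.8 to 22.1 CPM with HBSS, 25.2 to 63.1 CPM with ADU-S100 and 29.1 to 269 CPM with the combination, the highest being tumor 28LL, and both tools called 4 higher with ADU-S100 (S100a8, S100a9, Mmp8 and Retnlg), while with the combination edgeR called none and DESeq2 called 6. Ly6g was at 0 in all 3 HBSS tumors. The 8 T cell genes summed to 31.0 to 56.3 CPM with HBSS, 58.0 to 85.6 CPM with ADU-S100 and 58.5 to 180 CPM with the combination, with Cd8b1 called higher for ADU-S100 by edgeR, and Cd8b1 and Cd3g by DESeq2, which called 6 higher for the combination where edgeR called none. Their part in the V-segment result was not tested. Red blood cell genes summed to 21.8 to 91.2 CPM with HBSS and to 9.34 to 19.0 CPM with ADU-S100. They summed to 5.93 to 18.0 CPM with cyto-IL-15, also below HBSS, and to 7.58 to 47.2 CPM with the combination, which overlapped HBSS. EdgeR called none of these genes and DESeq2 called Hbb-bs lower with ADU-S100. The lymph node chemokine gene Ccl21a reached at most 0.0454 CPM and Glycam1, a marker of lymph node venules, at most 0.329 CPM in any tumor.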

How the data were processed

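Per the labels, the submitters' processing notes name bcl2fastq 2.20, Trimmomatic 0.36, STAR 2.5.2b, featureCounts (Subread 1.5.2) and the GRCm38 (mm10) build. The deposited values are raw counts per Ensembl gene, which the authors did not normalize. The libraries held 48772204 to 103700199 counts. The strand setting and the rule for reads matching several genes are not given in the sources used here. Symbols and biotypes came from GENCODE M21, in which 49056 of 49315 identifiers were found and all 348 V rows had the position given in the files.

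Every pair of groups was compared over its 6 tumors alone with edgeR 4.0.16 in R 4.3.3 (TMM, quasi-likelihood test with robust estimation, filterByExpr with minimum count 10 and minimum total 15) and called at a Benjamini-Hochberg adjusted p under 0.05 over all genes tested with an absolute log2 fold change over 1. The script was checked on simulated counts. Alternatives were DESeq2 1.42.0, RLE size factors, no filter, 1 fit over all 12 tumors, no fold-change limit and leaving out each tumor, and thinning to 220 counts, chosen after seeing the data. Sums, shares and effective numbers were not tested. Identity is 1 minus the edit distance over the longer coding sequence. Named segments were the 6 Ighv and 6 Igkv with the highest mean CPM, all Iglv, up to 5 called in each direction per comparison by p, and the first of each class in each tumor. From each gene list at most 4 were named, by mean CPM or where a small count needed them. Igkv6-25, Igkv2-137, Ighv11-2, Igkv14-126, Mzb1, Prdm1, Ighg1, Rag1, Rag2, Ly6g, Ccl21a and Glycam1 were chosen after their values were seen. The members and lists were chosen with earlier results of these data known. Tumors were grouped by the labels, and replicate numbers pair nothing. The labels do not say whether tumors with a shared number came from related animals, within a group (22R and 22LL) or across groups (22LR of ADU-S100 and 22 of the combination with those, 20LL of cyto-IL-15 with 20L of the combination), so p-values measure the spread between these tumors. Some genes of the lists are not reported here.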

Additional observations from a re-analysis of the deposited data

How the results depend on the processing

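In ADU-S100 against HBSS the 9 called V segments became 46 with DESeq2, 20 without the filter on low counts and 0 with all 12 tumors in 1 fit, and 5 to 12 when single tumors were left out, with 5 without tumor 17LL. RLE size factors gave 8. All 9 kept a negative fold change in every alternative, from -9.31 to -3.25 on the log2 scale. In combination against HBSS the count of 0 became 54 with DESeq2 and 3 without the filter, and ranged from 0 to 6 when single tumors were left out, with 6 without tumor 28LL. In ADU-S100 against cyto-IL-15 it became 4 with DESeq2 and ranged from 0 to 12, with 12 without tumor 13. In cyto-IL-15 against HBSS it ranged from 0 to 2, with 2 without tumor 13. The 2 remaining comparisons gave 0 in every alternative. Apart from DESeq2, the shares of all genes called in these alternatives are not given here. The cause of these differences was not tested.

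The summed V level of cyto-IL-15 against HBSS ranged from -5.20 to 0.24 (log2) with single tumors left out, and turned without tumor 13. That of combination against ADU-S100 ranged from -0.75 to 1.65 and turned without tumor 17LL. Against HBSS, ADU-S100 ranged from -5.03 to -2.64 and the combination from -3.75 to -2.94. TMM scaling, functional segments alone and removal of the leading member of each tumor turned no sum.

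At 1 count or more the mean number of segments detected was 143 with HBSS, 89.0 with ADU-S100 and 81.7 with the combination, against 95.3, 28.7 and 21.7 at 10 counts. Thinned to the 15 counts of tumor 13 it was 11.4 with HBSS and 8.85 with the combination, and the tumors of these groups overlapped. Without tumor 18R the mean of ADU-S100 was 9.50, and without tumor 13 that of cyto-IL-15 was 104 in place of 69.0. Thinned to 220 counts the means were 53.6, 48.3 and 40.5 for HBSS, ADU-S100 and the combination. No paired analysis was possible because replicate numbers follow accession order only. Some tumor names share a number between groups (22R and 22LL of HBSS with 22LR of ADU-S100 and 22 of the combination, and 20LL of cyto-IL-15 with 20L of the combination), but its meaning is not given, and no 2 groups share more than 1 such number.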

Other observations

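The V rows not classed as functional V genes, most of them pseudogenes, numbered 132 and held 199 counts over the 12 tumors, 0.177% of all V counts and at most 19 in any 1 row. Their counts lay between 4 and 37 in every tumor and changed far less than the V sum. They were 21, 22 and 37 with HBSS, 11, 4 and 9 with ADU-S100 and 13, 15 and 15 with the combination. Every ADU-S100 and combination tumor thus lay below every HBSS tumor, as for the V sum. Tumor 20LL, with the most V counts, had 16, and ADU-S100 tumor 17LL, with 220 member counts, had 11. In tumor 13 they were 4 of 19 V counts, or 21.1%. What these reads are was not tested.

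Ighv11-2, named after its values were seen, had 815 of its 829 counts in cyto-IL-15 tumor 20LL, where it stood at 10.3 CPM, and at most 6 counts in any other tumor. As background, Ighv11-2 is known from antibodies of B-1 cells, where it is often paired with Igkv14-126. Igkv14-126 had 0 counts in that tumor, which allows up to 3, and 131 of its 148 counts in HBSS tumor 19.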
